A study of Mus musculus with 6 samples.

Results

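TRBV3 is 1 of the gene segments from which the β chain of the αβ T cell receptor (TCR) is assembled, and all productive TRB chains built on it were followed here in P2/I-Ab tetramer-binding CD4+ T cells of mouse lymph nodes. P2 is a peptide of interphotoreceptor retinoid-binding protein (IRBP), a retinal antigen, and the tetramer is a fluorescent multimer of this peptide on the mouse class II molecule I-Ab that stains T cells whose TCR binds it. A TRBV3 chain was any assembled transcript (contig) of the TRB locus called productive with TRBV3 as its V gene. TRBV3 was selected on its own counts in these libraries, where it held the most cells of any TRBV gene in 1 uveitis pool and the most clonotypes in the other, so its shares are given as a description and were not tested. There were 119 such contigs among 1119 productive TRB contigs. Every mouse carried AireGW/+, a dominant hypomorphic allele of the autoimmune regulator, together with Lyn-/-, loss of a Src-family kinase, and was 9 wk of age. The cells came from pooled eye-draining lymph nodes of mice with uveitis (2 pools, dataset 1 and dataset 2, of 7 and 8 mice in an order that is not stated) and of mice without uveitis (1 pool of 16 mice). The libraries used here hold no group without these alleles and no cells sorted as negative for the tetramer, and a cell could not be traced to its mouse within a pool. The CD4 and lineage markers of the sort could not be checked, because the gene expression libraries were not analysed here.

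A β chain is made in the thymus by joining a V, a D and a J segment, with bases trimmed from and added to the ends at each joint. The stretch that spans the joint is a complementarity-determining region, CDR3, which reaches over the bound peptide, whereas the V segment alone encodes the other loops, which lie mainly over the major histocompatibility complex molecule. The α chain is joined from a V and a J segment. T cells that share both rearranged nucleotide sequences are usually descended from 1 cell, so cells were put in 1 clonotype where V gene, J gene and the bases of the CDR3 matched in the α and in the β chain. A clonotype seen in 2 or more cells was called expanded. Positions in a CDR3 are counted from its first cysteine as position 1.

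In the annotation of GRCm38, Trbv3 lies on the forward strand at chr6:41048290-41048828, with exons at 41048290-41048442 and 41048527-41048828. The germline pieces that enter the CDR3 are shown first, because the sequences of the clonotypes are read against them. TRBV3 supplies 17 bases before its recombination signal.
TRBV3 end: tgtgccagcagcttagc
TRBD1: gggacagggggc
TRBD2: gggactgggggggc

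The 8 expanded TRBV3 clonotypes carried the following CDR3β sequences, shown because their sizes set the cell shares described below. Capitals mark the bases matched neither to the germline TRBV3 end nor to the germline J segment, that is, D bases and added bases. In each library the clonotypes are lettered by their number of cells.
Dataset 1, clonotype A (12 cells, TRBJ2-7): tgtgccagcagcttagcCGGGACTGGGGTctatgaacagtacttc
Dataset 1, clonotype B (3 cells, TRBJ2-5): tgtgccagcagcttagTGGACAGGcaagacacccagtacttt
Dataset 1, clonotype C (2 cells, TRBJ2-7): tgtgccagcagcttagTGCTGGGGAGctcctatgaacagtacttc
Dataset 2, clonotype A (6 cells, TRBJ2-7): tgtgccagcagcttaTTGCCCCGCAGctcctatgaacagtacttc
Dataset 2, clonotype B (2 cells, TRBJ2-7): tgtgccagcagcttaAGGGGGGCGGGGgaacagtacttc
Dataset 2, clonotype C (2 cells, TRBJ1-1): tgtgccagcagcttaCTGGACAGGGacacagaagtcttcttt
No uveitis, clonotype A (6 cells, TRBJ2-2): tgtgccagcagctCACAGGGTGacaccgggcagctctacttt
No uveitis, clonotype B (2 cells, TRBJ2-7): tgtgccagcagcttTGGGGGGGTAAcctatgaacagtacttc

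The libraries were shallow in cells and of unequal depth in molecules. They held 212, 365 and 512 barcodes in dataset 1, dataset 2 and the pool without uveitis, with 5302, 7439 and 21408 unique molecular identifiers (UMIs, tags that mark single transcripts) in their contigs. A paired TCR, with a productive TRA and TRB, was found in 176, 324 and 470 cells. Dataset 2 shared 1 barcode with the pool without uveitis, which held no TRBV3 chain in either, and the other pairs of libraries shared 0. The 119 TRBV3 contigs lay in as many cells. Of the 36 in dataset 1, 30 were the TRB with the most UMIs in a cell with a TRA, 5 were in cells with no TRA and 1 was a weaker second TRB. Of the 33 in dataset 2, 26 were paired and 7 had no TRA. Of the 50 without uveitis, 46 were paired, 1 had no TRA and 3 were second TRB chains. The paired cells formed 16, 19 and 40 clonotypes. Intervals below are 95% Clopper-Pearson intervals and cover counting error only.

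TRBV3 made up a similar share of clonotypes in each library, whereas its share of cells was highest in dataset 1. By cells, TRBV3 was in 17.0% of paired TCRs in dataset 1 (30 of 176, 11.8 to 23.4%), 8.02% in dataset 2 (26 of 324, 5.31 to 11.5%) and, in the pool lacking uveitis, 9.79% (46 of 470, 7.25 to 12.8%). These shares ranked first of 20, sixth of 17 and second of 21 TRBV genes found. By clonotypes the shares were 11.6% (16 of 138, 6.77 to 18.1%), 13.4% (19 of 142, 8.25 to 20.1%) and 9.73% (40 of 411, 7.04 to 13.0%), ranking second, first and second. The mean of the uveitis pools was 12.5% ± 6.38 by cells and 12.5% ± 1.26 by clonotypes (SD, n = 2 pools).

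The cell shares of dataset 1 and dataset 2 did not overlap in their intervals. Such a gap between these pools was common, however, occurring for 7 of 20 TRBV genes (35.0%). Between dataset 1 and the pool without uveitis 9.52% of TRBV genes did not overlap, and between dataset 2 and that pool 33.3% did not, and TRBV3 overlapped in both. By clonotypes the TRBV3 intervals overlapped in every pair of libraries, where 0.0% of TRBV genes (dataset 1 with dataset 2), 4.76% (dataset 1 with no uveitis) and 4.76% (dataset 2 with no uveitis) did not. Without the largest TRBV3 clonotype of each library (12, 6 and 6 cells), the TRBV3 share of cells was 11.0% (6.64 to 16.8%), 6.29% (3.88 to 9.55%) and 8.62% (6.23 to 11.6%). Dataset 1 remained the highest, and the 3 intervals overlapped. When instead the clonotype with the most cells of any TRBV gene was left out, which was the same TRBV3 clonotype in dataset 1 but a TRBV31 clonotype of 37 cells in dataset 2 and of 18 cells without uveitis, the shares were 11.0%, 9.06% and 10.2%. The conditions were not compared by a test, since TRBV3 was selected on these shares and there was 1 pool without uveitis.

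**Figure D1:**
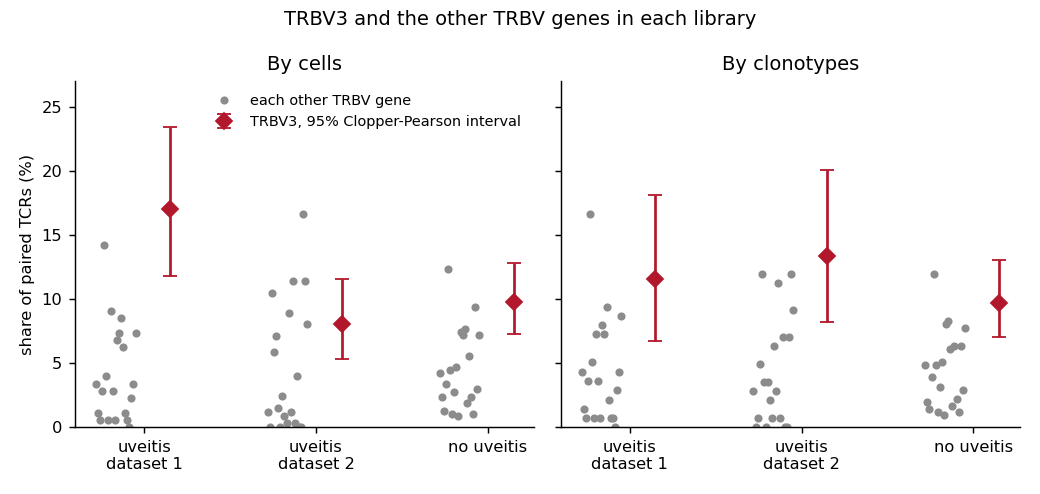
Share of paired TCRs (y axis, %) that used TRBV3 (red diamonds, 95% Clopper-Pearson interval) or each other TRBV gene (grey points) in the 3 libraries (x axis), by cells on the left and by clonotypes on the right. TRBV3 stood at 17.0%, 8.02% and 9.79% of cells and at 11.6%, 13.4% and 9.73% of clonotypes.

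The TRBV gene whose cell shares were closest to those of TRBV3, by the summed absolute difference over the 3 libraries, was TRBV13-2, at 14.2%, 7.10% and 12.3%. The summed difference was 6.32 percentage points. TRBV5 (7.39%, 8.02% and 7.23%) and TRBV19 (6.82%, 8.95% and 7.45%) followed, at 12.2 and 13.5 points. The most used TRBV genes by cells were TRBV3 itself in dataset 1, TRBV31 in dataset 2 (54 cells from 10 clonotypes, 16.7%) and TRBV13-2 without uveitis (58 cells from 49 clonotypes).

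Most TRBV3 clonotypes were single cells, and few held more than 2 cells in any library. In dataset 1, clonotype A held 12 of the 30 TRBV3 cells (40.0%, 22.7 to 59.4%), clonotype B 3 and clonotype C 2, and 13 of 16 clonotypes were in 1 cell. In dataset 2, clonotype A held 6 of 26 cells (23.1%, 8.97 to 43.6%), clonotypes B and C held 2 each, and 16 of 19 were in 1 cell. Without uveitis, clonotype A held 6 of 46 cells (13.0%, 4.94 to 26.3%), clonotype B held 2, and 38 of 40 were in 1 cell.

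**Figure D2:**
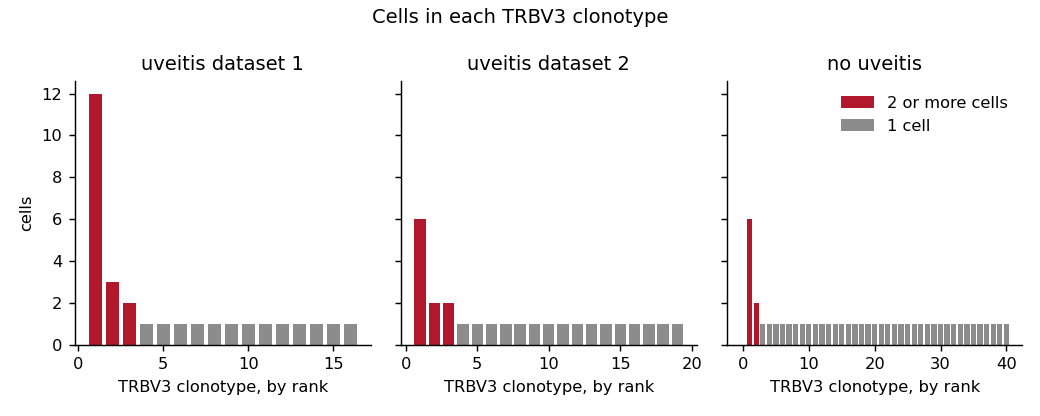
Number of cells (y axis) in each TRBV3 clonotype, ranked by size (x axis), in the 3 libraries. Red bars are clonotypes of 2 or more cells, 3 in dataset 1, 3 in dataset 2 and 2 without uveitis, and grey bars are clonotypes of 1 cell.

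Compared with cells of other TRBV genes in the same library, expansion of TRBV3 cells went in opposite directions in the uveitis pools. In dataset 1, 17 of 30 TRBV3 cells belonged to expanded clonotypes (56.7%, 37.4 to 74.5%), against 34 of 146 other cells (23.3%, 16.7 to 31.0%). In dataset 2 it was 10 of 26 (38.5%, 20.2 to 59.4%) against 208 of 298 (69.8%, 64.2 to 75.0%). Without uveitis the shares were 17.4% (8 of 46, 7.82 to 31.4%) and 17.0% (72 of 424, 13.5 to 20.9%). Cells of 1 clonotype are not independent, so these intervals are too narrow, and because clonotype sizes make up the cell share on which TRBV3 was selected, the differences were not tested. Without the largest TRBV3 clonotype of each library the expanded share of TRBV3 cells was 27.8%, 20.0% and 5.0%.

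Counted by clonotypes, the expanded share of TRBV3 was 18.8% (3 of 16, 4.05 to 45.6%) against 8.20% (10 of 122, 4.0 to 14.6%) in dataset 1 and 15.8% (3 of 19, 3.38 to 39.6%) against 26.8% (33 of 123, 19.2 to 35.6%) in dataset 2. Without uveitis it was 5.0% (2 of 40, 0.611 to 16.9%) against 5.12% (19 of 371, 3.11 to 7.88%). These intervals overlapped in each library.

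The α partners of the expanded clonotypes came from several TRAV families. In dataset 1, clonotype A paired with TRAV12D-3 and TRAJ13 (CDR3α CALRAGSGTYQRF), clonotype B with TRAV7D-3 and TRAJ9 (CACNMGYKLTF) and clonotype C with TRAV12D-2 and TRAJ21 (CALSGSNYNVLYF). In dataset 2, clonotypes A and B both paired with TRAV9-4, with TRAJ43 (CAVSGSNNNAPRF) and TRAJ56 (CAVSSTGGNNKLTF), and clonotype C with TRAV3-1 and TRAJ12. Without uveitis, clonotype A paired with TRAV14N-1 and TRAJ52 (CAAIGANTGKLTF) and clonotype B with TRAV9-1 and TRAJ23 (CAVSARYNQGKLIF). Near-identical copies of TRAV genes (the D and N names) cannot always be told apart, so usage is given by TRAV family.

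By clonotypes, TRAV9 was the family most often paired with TRBV3 in both uveitis pools. It was in 6 of 16 clonotypes (37.5%, 15.2 to 64.6%) in dataset 1 and 7 of 19 (36.8%, 16.3 to 61.6%) in dataset 2. Of these, 2 in dataset 1 shared all bases of both CDR3 sequences, and 2 in dataset 2 shared all amino acids of both. With other TRBV genes the TRAV9 share was 23.0% (28 of 122) and 28.5% (35 of 123). Without uveitis TRAV9 was in 12.5% of TRBV3 clonotypes (5 of 40, 4.19 to 26.8%) and 10.2% of the others (38 of 371), and TRAV6 came first with 9 of 40 (22.5%, 10.8 to 38.5%). TRAV12 (3 of 16) and, level with each other, TRAV3 and TRAV7 (2 each) followed in dataset 1. TRAV7 (2 of 19) followed in dataset 2, and TRAV7 and TRAV12 (5 of 40 each) were level with TRAV9 without uveitis. The intervals of TRBV3 and the other TRBV genes overlapped for TRAV9 in each library.

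By deposited gene name, TRAV9-4 was in 4 of the 19 TRBV3 clonotypes of dataset 2 (21.1%, 6.05 to 45.6%). It was in 3 of the 123 others (2.44%, 0.506 to 6.96%), and the intervals overlapped. Of the 4, 1 had the β chain of clonotype A and rested on 1 TRA UMI. In dataset 1 TRAV9-4 was in 1 of 16 and 8 of 122, and without uveitis in 1 of 40 and 8 of 371. The most used TRAJ genes with TRBV3 were TRAJ34 (3), TRAJ13 (2) and TRAJ44 (2) in dataset 1, and TRAJ31 (4) and TRAJ57 (3) in dataset 2, where TRAJ12, TRAJ37 and TRAJ56 (2 each) were level. TRAJ57 was in 15.8% of TRBV3 clonotypes there (3.38 to 39.6%) and in 1 of 123 others (0.813%, 0.0206 to 4.45%), and these intervals overlapped. Without uveitis they were TRAJ27 and TRAJ34 (3 each), and no other TRAJ was in more than 2. Both TRAJ44 chains of dataset 1 had short CDR3α calls, CAVFT and CAVSVT, that lacked the phenylalanine or tryptophan with which a CDR3 normally ends.

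The J partners of TRBV3 were mixed. The TRBJ2 cluster, which lies downstream of TRBJ1 and includes the frequently used TRBJ2-7, was in 68.8% of TRBV3 clonotypes in dataset 1 (11 of 16, 41.3 to 89.0%), 73.7% in dataset 2 (14 of 19, 48.8 to 90.9%) and 75.0% without uveitis (30 of 40, 58.8 to 87.3%). For other TRBV genes it was 77.9%, 74.8% and 63.3%. TRBV3 minus the others was -9.12, -1.11 and 11.7 percentage points, mean 0.475 ± 10.5 (SD, n = 3 libraries), higher in 1 of 3 libraries (exact two-sided sign-flip permutation p = 1.0, adjusted p = 1.0). The smallest p that 3 libraries allow is 0.25, so this test could not reach 0.05. The adjustment was by Benjamini-Hochberg over 3 such tests. Counted by cells, the TRBJ2 share was higher with TRBV3 in each library, with overlapping intervals, as given in the closing section.

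Among single TRBJ genes, TRBJ2-7 came first with TRBV3 in each library. In dataset 1, TRBJ2-7 (4 of 16) and TRBJ1-1 (3) were the most used by clonotypes, and TRBJ1-3, TRBJ2-1, TRBJ2-4 and TRBJ2-5 were level at 2. The 3 TRBJ1-1 clonotypes were the same β chain with different α calls, and by distinct β chains TRBJ1-1 was in 1 of 11, below TRBJ2-7 (3) and TRBJ2-1 and TRBJ2-4 (2 each). In dataset 2, TRBJ2-7 was in 9 of 19 clonotypes (47.4%, 24.4 to 71.1%) against 17.9% of the others (22 of 123, 11.6 to 25.8%), followed by TRBJ1-1 (3). TRBJ2-1 was in 0 of 19, against 26 of 123 others (21.1%), and the interval of 0 of 19 reaches 17.6%. Without uveitis the order was TRBJ2-7 (8 of 40), TRBJ2-2 (7) and TRBJ2-3 (6).

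For TRBJ genes, the intervals of TRBV3 and other clonotypes did not overlap for 0.0% of 12 genes in dataset 1, 0.0% of 11 in dataset 2 and 8.33% of 12 without uveitis. The 1 gene was TRBJ2-2, at 17.5% (7.34 to 32.8%) against 4.31% (2.48 to 6.91%). Of its 7 clonotypes, 3 were the same β chain and differed in the α chain by which they were defined. Most of their cells carried the same pair of α chains, as described below. By distinct β chains TRBJ2-2 was in 5 of 38 (13.2%, 4.41 to 28.1%) against 4.25% (2.40 to 6.91%), and the intervals overlapped.

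**Figure D3:**
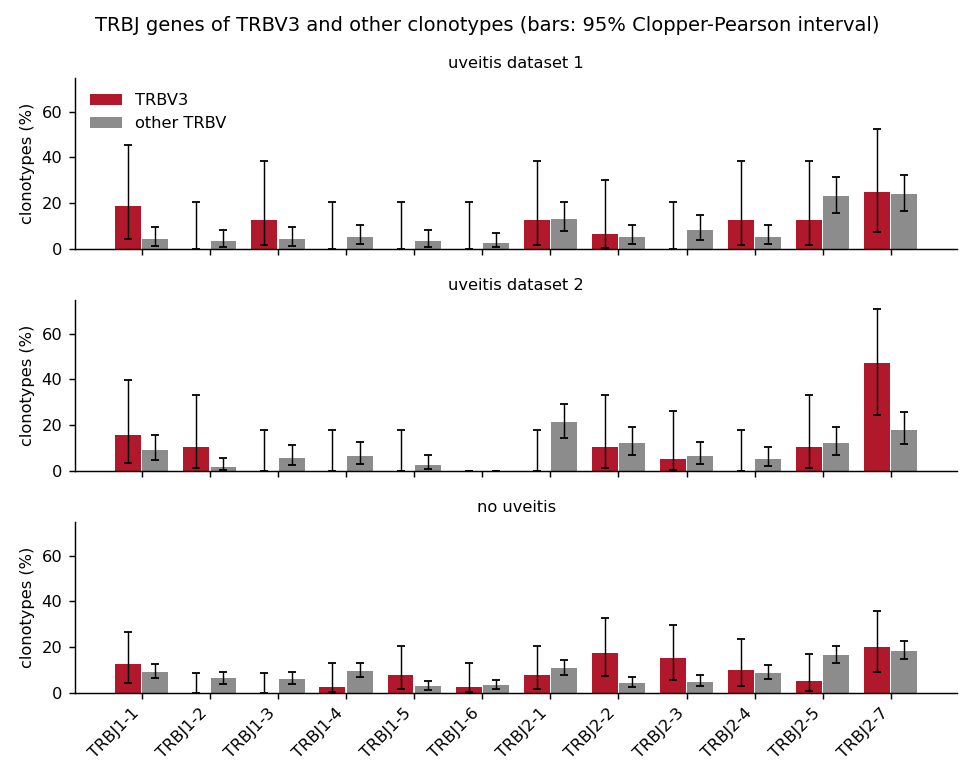
Share of clonotypes (y axis, %, starting at 0) with each TRBJ gene (x axis) for TRBV3 (red) and other TRBV genes (grey) in the 3 libraries, with 95% Clopper-Pearson intervals. TRBJ2-7 was the most used with TRBV3 in each library, at 25.0%, 47.4% and 20.0%.

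TRBV3 CDR3β loops were of ordinary length. The mean was 14.25 ± 1.06 residues in dataset 1 (SD, 16 clonotypes, 12 to 16), 13.5 ± 0.964 in dataset 2 (19 clonotypes, 12 to 15) and 13.8 ± 1.39 without uveitis (40 clonotypes, 10 to 17). Other TRBV genes gave 14.2 ± 1.41, 14.0 ± 1.66 and 13.7 ± 1.49. The differences were 0.0697, -0.534 and 0.0757 residues, mean -0.130 ± 0.351 (SD, n = 3 libraries), with TRBV3 longer in 2 of 3 libraries (exact sign-flip permutation p = 1, adjusted p = 1).

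Read against the germline, the 66 distinct TRBV3 β chains kept most of the V end and differed in a short middle. A median of 14, 15 and 13 bases from the first base of the cysteine codon matched TRBV3 in dataset 1, dataset 2 and without uveitis. The full 17 bases were kept in 1 chain, clonotype A of dataset 1. The middle, matched to neither V nor J, had a median of 11 bases (4 to 14), 10 (4 to 15) and 10 (1 to 16). The deposited D calls named TRBD1 in 6 of 11, 7 of 17 and 19 of 38 chains and TRBD2 in 4, 6 and 13, with no call in 1, 4 and 6. None of the 17 chains with a TRBJ1 segment was called TRBD2, whereas 14 were called TRBD1. By counting alone the interval of 0 of 17 reaches 19.5%. In the annotation, however, TRBD2 starts at 41542163, downstream of TRBJ1-6, the last of the TRBJ1 segments, which ends at 41535606. The 0 is therefore given as a description.

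TRBV3 encodes leucine at position 5 where its end is untrimmed. Leucine stood there in 8 of 11 chains of dataset 1 (72.7%, 39.03 to 94.0%), 9 of 17 of dataset 2 (52.9%, 27.8 to 77.0%) and 15 of 38 without uveitis (39.5%, 24.0 to 56.6%). In 5, 9 and 11 of these the whole leucine codon matched the germline, and in the others it did not. The shares with other TRBV genes were 17.5%, 20.9% and 16.7%. Because the germline codon belongs to the gene by which the chains were chosen, this difference is a description.

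A pair of patterns in the residues of the CDR3β was chosen after the values were seen and is described with no test. One was aspartate followed by arginine. It was in 2 of 11 distinct TRBV3 chains in dataset 1 (18.2%, 2.28 to 51.8%), 4 of 17 in dataset 2 (23.5%, 6.81 to 49.9%) and 5 of 38 without uveitis (13.2%, 4.41 to 28.1%). Other TRBV genes had it in 6.19% (6 of 97), 7.27% (8 of 110) and 4.82% (17 of 353). In 11 of these 11 TRBV3 chains the longest D match was to TRBD1, 1 of whose reading frames encodes aspartate and arginine. The intervals of TRBV3 and other chains overlapped in each library. The chains with leucine and then valine or leucine before the pair are shown because such chains were in each of the 3 libraries.
Dataset 1, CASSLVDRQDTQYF: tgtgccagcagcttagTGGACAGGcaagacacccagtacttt
Dataset 1, 15 residues, TRBJ2-2: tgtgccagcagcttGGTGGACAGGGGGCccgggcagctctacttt
Dataset 2, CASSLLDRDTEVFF: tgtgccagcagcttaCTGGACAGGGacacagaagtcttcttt
Dataset 2, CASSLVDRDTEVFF: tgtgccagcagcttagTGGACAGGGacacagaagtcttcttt
Dataset 2, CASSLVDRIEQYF: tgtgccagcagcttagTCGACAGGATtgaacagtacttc
No uveitis, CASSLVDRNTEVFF: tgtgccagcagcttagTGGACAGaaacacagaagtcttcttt

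These chains supplied both close pairs found among paired TRBV3 cells. In dataset 2, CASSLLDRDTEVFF (2 cells) and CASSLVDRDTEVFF (1 cell) were 1 residue apart, and both were paired with the same CDR3α residues and TRAJ12. The α chains used different genes, TRAV3-1 and TRAV7-3, and their CDR3α differed at 3 bases. Between dataset 2 and the pool without uveitis, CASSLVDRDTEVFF was 1 residue from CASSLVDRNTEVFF (1 cell, TRAV12N-1, CDR3α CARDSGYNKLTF). No TRBV3 CDR3β was identical between libraries, in 176 comparisons of dataset 1 with dataset 2, 608 of dataset 2 with no uveitis and 418 of dataset 1 with no uveitis. Other TRBV genes, compared within their own V gene, gave 1 of 766, 4 of 2534 and 0 of 2422. A difference in identical chains was therefore not detectable.

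Close pairs were rare, and with so few a difference from other TRBV genes was not detectable at this depth. Within dataset 2, 1 of 120 comparisons of TRBV3 CDR3β sequences was 1 residue apart, against 6 of 457 for other TRBV genes compared within their own V gene. Between dataset 2 and no uveitis it was 1 of 608 against 3 of 2534. In the other 4 sets of comparisons, within dataset 1 (55), within the pool without uveitis (703) and between dataset 1 and dataset 2 (176) or no uveitis (418), TRBV3 gave 0, which allows up to 3 close pairs in each. Other TRBV genes gave 1 of 339, 5 of 4142, 6 of 766 and 4 of 2422 in these sets. Counting TRBV3 cells without a TRA added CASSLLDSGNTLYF beside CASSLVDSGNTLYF in dataset 1, and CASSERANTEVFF of dataset 2 beside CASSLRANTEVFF of dataset 1.

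The other pattern was arginine at position 6. In dataset 2 it was in 7 of 17 distinct TRBV3 chains (41.2%, 18.4 to 67.1%), from 8 cells, against 5 of 110 other chains (4.55%, 1.49 to 10.3%). In dataset 1 it was in 2 of 11 (18.2%, 2.28 to 51.8%) against 11.3%, and without uveitis in 2 of 38 (5.26%, 0.644 to 17.7%) against 5.95%. Of the 7 chains of dataset 2, 2 encoded the same residues, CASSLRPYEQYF, and are described below. Among the residues found at position 6, the intervals of TRBV3 and other chains did not overlap for 0.0% of residues in dataset 1, 6.25% in dataset 2 (arginine, 1 of 16) and 0.0% without uveitis.

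**Figure D4:**
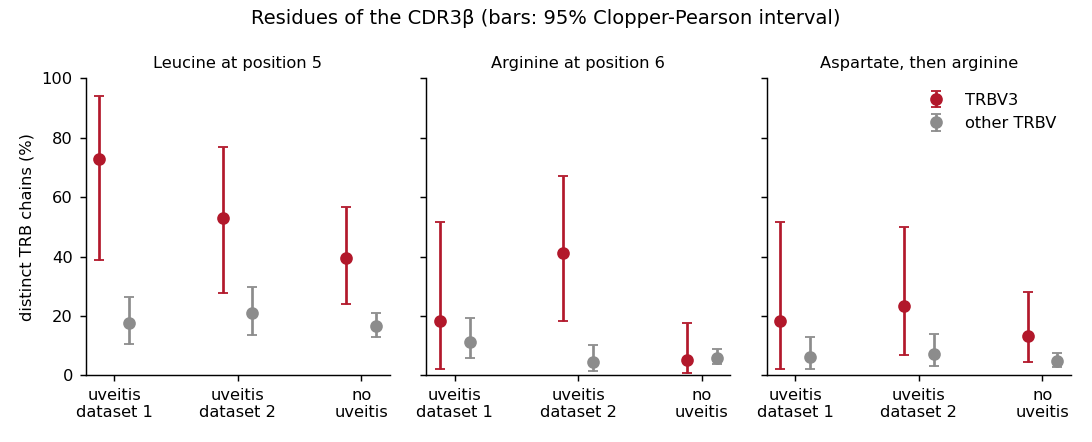
Share of distinct TRB chains (y axis, %) with leucine at position 5, arginine at position 6, or aspartate followed by arginine in the CDR3β, for TRBV3 (red) and other TRBV genes (grey) in the 3 libraries, with 95% Clopper-Pearson intervals. Arginine at position 6 was in 41.2% of TRBV3 chains in dataset 2, 18.2% in dataset 1 and 5.26% without uveitis.

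Arginine at position 6 stood in each of the 3 TRBV3 clonotypes whose defining α chain joined TRAV9-4 to TRAJ56. They were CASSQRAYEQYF in dataset 1 and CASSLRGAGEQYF (clonotype B, 2 cells) and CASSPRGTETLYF in dataset 2. Their CDR3α loops were 1 residue apart from each other across the 2 pools. Capitals mark the codon in which the 3 sequences differ, which encodes glycine, serine and alanine in the order shown.
CDR3α of dataset 1, with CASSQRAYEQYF: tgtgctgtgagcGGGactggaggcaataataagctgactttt
CDR3α of dataset 2, with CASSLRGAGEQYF: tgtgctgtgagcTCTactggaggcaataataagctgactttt
CDR3α of dataset 2, with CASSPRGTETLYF: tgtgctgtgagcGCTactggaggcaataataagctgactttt

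The 3 loops were otherwise the same base for base, and the marked codon lies where V and J meet. With other TRBV genes, TRAV9-4 and TRAJ56 were joined in 1 of 122 clonotypes of dataset 1 (a TRBV20 chain), 0 of 123 of dataset 2 and 0 of 371 without uveitis, and with TRBV3 in 0 of 40 without uveitis. The α chain of that TRBV20 clonotype, 1 residue from the TRBV3 partner of dataset 1, was also the weaker of the α chains (4 UMIs) in a TRBV3 cell of dataset 1 with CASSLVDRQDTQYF, which has valine at position 6. The 3 TRBV3 clonotypes rested on 4 cells, with TRA UMI medians of 2, 2.5 and 1. Over all 75 TRBV3 clonotypes, 8 of 2775 pairs had CDR3α sequences that were identical (4) or 1 residue apart (4), and 3 of the 8 were among this trio. One further pair between libraries joined TRAJ39 chains of dataset 2 and no uveitis. No such count of CDR3α pairs is given here for other TRBV genes, so the 8 pairs have no comparison. The trio was chosen after its values were seen and was not tested.

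Another pair in dataset 2 was alike in both chains. Its cells had the same amino acids throughout, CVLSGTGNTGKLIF (TRAV9-2, TRAJ37) with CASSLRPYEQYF (TRBJ2-7, arginine at position 6), but 1 base of each CDR3 differed and they counted as separate clonotypes. Capitals mark the differing base.
Cell 1, CDR3α: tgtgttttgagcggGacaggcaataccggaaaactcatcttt
Cell 2, CDR3α: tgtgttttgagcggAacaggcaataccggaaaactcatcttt
Cell 1, CDR3β: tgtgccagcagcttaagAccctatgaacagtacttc
Cell 2, CDR3β: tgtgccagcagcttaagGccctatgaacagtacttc

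Neither difference changed an amino acid. The TRB had 13 and 9 UMIs and the TRA 4 and 2. Clonotypes defined by amino acids would join these cells.

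Some TRBV3 β chains occurred with more than 1 α chain. A single CDR3β nucleotide sequence belonged to 2 or more clonotypes for 4 of 11 chains in dataset 1 (36.4%, 10.9 to 69.2%), 2 of 17 in dataset 2 (11.8%, 1.46 to 36.4%) and 1 of 38 without uveitis (2.63%, 0.0666 to 13.8%). For other TRBV genes the shares were 18.6% (18 of 97), 9.09% (10 of 110) and 4.53% (16 of 353), and the intervals overlapped.

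Some of these β chains were in cells with a second productive TRA. T cells can carry 2 rearranged α chains, and a clonotype was defined by the one with more UMIs. Of the 8 cells with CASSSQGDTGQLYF without uveitis, 7 carried both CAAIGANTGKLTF (TRAV14N-1) and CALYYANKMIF (TRAV6-7-DV9). In 6 of them the first had more UMIs (clonotype A, 9 to 34 against 4 to 29), and in 1 cell both had 2 UMIs and the second was taken. The remaining cell had another chain, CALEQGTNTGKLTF, with 2 UMIs. In dataset 2 the 2 cells with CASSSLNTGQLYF carried the same 2 α chains in opposite order, 1 of TRAV5-4 and TRAJ34 (7 and 5 UMIs) and 1 of TRAV7-5 and TRAJ32 (2 and 9 UMIs). The 3 cells of clonotype B of dataset 1 all had a second chain, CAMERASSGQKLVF (TRAV13D-3, TRAJ16), with 3, 5 and 3 UMIs. The fourth cell with this β chain paired with TRAV3-3 (CAVSVT, 8 UMIs) and had a second chain of TRAV9-4 and TRAJ56 with 4 UMIs. In all, 5 of 30, 5 of 26 and 13 of 46 TRBV3 cells had 2 productive TRA chains (16.7%, 19.2% and 28.3%), against 9.59%, 7.38% and 15.3% of other cells. The intervals overlapped in each library. These cells are not independent, since 7 of the 13 had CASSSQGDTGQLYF. The 5 of dataset 1 include every cell with the β chain of clonotype B.

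Other β chains met several α chains with no cell that carried both. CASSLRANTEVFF in dataset 1 was in 3 cells, of which 2 had the same CDR3α, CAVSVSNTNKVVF, base for base under the names TRAV9-1 and TRAV9-2. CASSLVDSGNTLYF in dataset 1 was with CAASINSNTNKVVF and with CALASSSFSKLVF, the latter also found, in other bases, in 7 TRBV20 cells of dataset 2. The β chain of clonotype A of dataset 1 was also in 1 cell with TRAV5-1 (6 TRA UMIs) and in 2 cells with no TRA. The β chain of clonotype A of dataset 2 was also in 1 cell with TRAV9-4 and TRAJ31 (1 TRA UMI) and in 2 cells with no TRA.

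Conversely, α chains of TRBV3 clonotypes were found with other TRBV genes in the same library. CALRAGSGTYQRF of clonotype A of dataset 1 was in 1 other TRBV3 cell, that of the 15-residue chain shown above (1 TRA UMI), and in 3 cells of TRBV13-1, TRBV13-2 and TRBV2 (1 to 3 TRA UMIs). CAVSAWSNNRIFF was in 1 TRBV3 cell of dataset 2 with 1 TRA UMI and in 59 cells of other TRBV genes there, and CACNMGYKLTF of clonotype B of dataset 1 was in 1 TRBV15 cell (4 TRA UMIs). Low TRA UMIs moved with several of these pairings, and their part in them was not tested.

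TRBV3 contigs were well covered in molecules. The median TRB UMIs per paired cell were 16 in dataset 1 (range 4 to 42), 12.5 in dataset 2 (range 2 to 76) and 18.5 in the pool without uveitis (range 1 to 114), against 11, 10 and 16 for other TRBV genes. The differences were 5, 2.5 and 2.5 UMIs, mean 3.33 ± 1.44 (SD, n = 3 libraries), higher in 3 of 3 libraries (exact sign-flip permutation p = 0.25, the smallest possible, adjusted p = 0.75). Clonotype A of dataset 1 had a median of 26 TRB UMIs. Without the largest TRBV3 clonotype of each library the differences were 0.5, 1.5 and 2 UMIs (mean 1.33, exact sign-flip permutation p = 0.25).

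TRA UMIs were not higher in TRBV3 cells, with medians of 5, 4 and 6.5 against 5, 5 and 8 in other cells. The median ratio of TRB to TRA UMIs was therefore higher in TRBV3 cells, at 3.14, 3.27 and 3.2 against 2.20, 2.17 and 2.0, and at 2.93, 3.27 and 3.21 without the largest clonotypes. This ratio was examined after the UMI counts were seen and was not tested. TRA was missing in 14.3% of TRBV3 cells in dataset 1 (5 of 35, 4.81 to 30.3%), 21.2% in dataset 2 (7 of 33, 8.98 to 38.9%) and 2.13% without uveitis (1 of 47, 0.0539 to 11.3%), against 12.05%, 8.59% and 5.78% of other cells. Here a cell was counted by its strongest TRB.

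**Figure D5:**
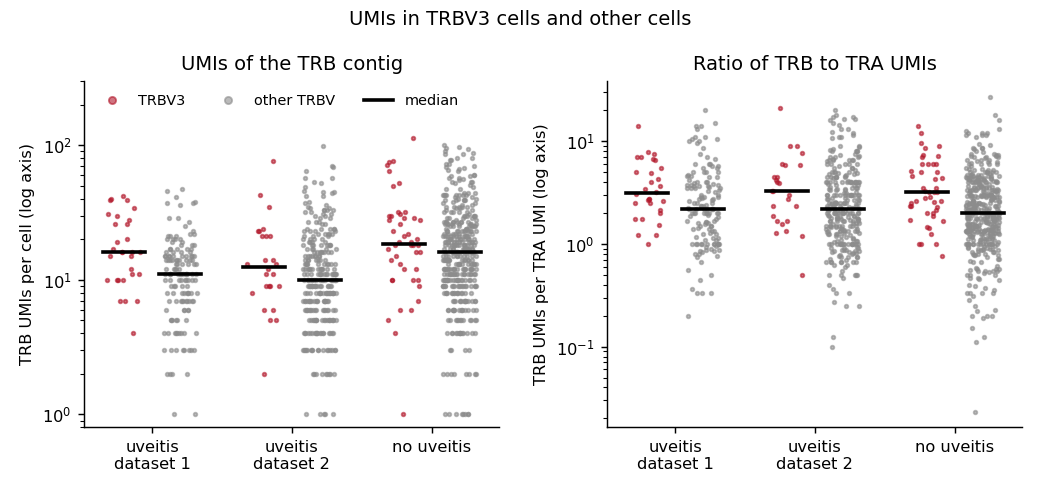
TRB UMIs per cell (left, log axis) and TRB UMIs per TRA UMI (right, log axis) in paired TRBV3 cells (red) and cells of other TRBV genes (grey) of the 3 libraries (x axis), 1 point per cell with black lines at the medians. TRBV3 medians were 16, 12.5 and 18.5 UMIs and ratios of 3.14, 3.27 and 3.2.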

How the data were processed

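Single-cell 5′ V(D)J libraries (10x Genomics) were analysed from sorted P2/I-Ab tetramer-binding CD4+ T cells. The authors assembled contigs and called cells with Cell Ranger (version 3, per their methods) against a GRCm38 V(D)J reference, and deposited for each contig its V, D, J and C calls, CDR3, and raw read and UMI counts, with no normalization. Productive contigs with V, J and CDR3 were kept here, and the TRA and the TRB with the most UMIs were paired in each cell. No doublet caller was run, since contig tables hold no expression profile, and whether the authors removed doublets from them is not given in the sources used here. Cells with several TRB chains were kept (0, 0 and 1 of the paired TRBV3 cells and 10, 29 and 17 of the others in dataset 1, dataset 2 and no uveitis), and 1 alternative kept only cells with 1 TRA and 1 TRB. All productive TRB contigs were called TRBC1, so the constant gene was not used. Germline segments and coordinates were read from GENCODE annotation of GRCm38, which may differ from the reference of the authors. The last 4 annotated bases of Trbv3, the start of the recombination signal, were left out, and a D match was the longest shared run of at least 5 bases.

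TRBV3 was compared with other TRBV genes within each library, and 3 summary measures were tested by an exact two-sided sign-flip permutation over libraries. The test planned for expanded shares was not used, since clonotype size enters the selection of TRBV3. Functions were tested on simulated contigs. Python 3.11.15, pandas 2.3.3, scipy 1.17.1 and matplotlib 3.10.9 were used. The members, named clonotypes (the 5 largest per library with at least 2 cells, CDR3β linking libraries, the 3 most used partner genes, the 3 TRBV genes nearest in share) and lists were chosen with earlier results of these data known. The residue patterns and α pairs were chosen after their values were seen. The 3 gene expression libraries were not analysed here. Alternatives are given in the closing section.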

Additional observations from a re-analysis of the deposited data

Results flagged for a closer look

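The TRBJ2 share of TRBV3 clonotypes lay below that of other TRBV genes in both uveitis pools, by -9.12 percentage points in dataset 1 and -1.11 in dataset 2, and above it without uveitis, by 11.7 points. The opposite signs drew attention to it, and the difference between the conditions was not tested. These signs depend on the unit counted. By cells TRBV3 lay above the others in each library. TRBJ2 was then in 83.3% against 79.5% in dataset 1, 76.9% against 64.8% in dataset 2 and 78.3% against 61.8% without uveitis. The intervals overlapped in each library. In dataset 1, clonotype A alone supplied 12 of the 25 TRBV3 cells with TRBJ2. In dataset 1, TRBJ1 was in 5 of 16 TRBV3 clonotypes but in 2 of 11 distinct β chains.

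Contigs outside the productive set also held TRBV3, in 4 non-productive TRB contigs of dataset 1 (10 to 38 UMIs) and 5 of the pool without uveitis (2 to 17 UMIs). None had a CDR3 call. They were 20.0% (5.73 to 43.7%) and 11.1% (3.71 to 24.1%) of the non-productive TRB contigs with a V gene named. Dataset 2 held 1 of 10 (10.0%, 0.253 to 44.5%). In dataset 1, 0 of the 4 lay in cells with a productive TRB, and without uveitis 4 of the 5 did.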

How the results depend on the processing

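The limits are few cells, pooled mice, 2 uveitis pools and 1 pool without uveitis, so the values describe these pools. No paired analysis was possible because the uveitis and no uveitis TCR libraries share fewer than 2 replicate numbers, there being 1 pool without uveitis.

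Without the clonotype with the most cells, or without the largest TRBV3 clonotype, the TRBV3 share of cells in dataset 1 was 11.0%. Without the largest TRBV3 clonotype, the expanded share of TRBV3 cells was 27.8%, 20.0% and 5.0% in the 3 libraries and 23.9% as the mean of the uveitis pools (47.6% with it). In cells with 1 TRA and 1 TRB it was 6.25% without uveitis, where the cells of clonotype A carry 2 TRA chains. With clonotypes from TRB alone the uveitis means were 62.9% of cells and 29.8% of clonotypes expanded, against 17.3% of clonotypes as reported, which became 21.4% over every combination of chains and 20.5% with amino acid clonotypes. The mean TRBJ2 difference of 0.475 points turned to -1.38 over every combination of chains and to -1.87 with at least 2 UMIs per contig. With TRAV names as deposited, the most paired TRAV held 3, 4 and 4 TRBV3 clonotypes in place of 6, 7 and 9. Leaving out the largest TRBV3 clonotypes for the share of cells and for UMIs was chosen after seeing the data. Counts of TRBV3 CDR3β 1 residue apart did not change when insertions and deletions were allowed. For other TRBV genes they rose from 4 to 6 of 2422 between dataset 1 and no uveitis. They also rose from 3 to 6 of 2534 between dataset 2 and no uveitis, and from 5 to 9 of 4142 within no uveitis. Leaving out a pool from a mean of the uveitis pools gives the value of the other pool. In all, 175 of 191 values under an alternative stayed within the error of the reported value or kept its direction and side of the threshold. This is a loose check, because the intervals are wide and no p could fall below 0.25. An expanded share of TRBV3 cells in dataset 1 of 74.3% from TRB alone, against 56.7% as reported, counted as unchanged.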
